A study of Mus musculus with 2 samples.

Results

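STAT5 is a transcription factor that cytokine receptors activate through JAK kinases, after which it dimerises, enters the nucleus and binds DNA. In B cell progenitors the main signal upstream of it is IL7, which sustains survival and proliferation. Much of its binding lies away from promoters, in enhancers that can stand beside or beyond the genes they act on. The regions described here are STAT5 peaks in the sequence that flanks genes. Their midpoint lay outside every annotated gene, and more than 1 kb but at most 20 kb from the nearest end of a protein-coding gene. Of 5901 peaks on assembled chromosomes, 911 met this rule (15.4%, exact 95% binomial interval 14.5 to 16.4). The rule used positions only, and no measured height.

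The peaks came from 1 STAT5 ChIP-seq library (chromatin immunoprecipitation with sequencing), for which 1 input library of the same genotype was also made. The cells were B cell progenitor leukemia cells from the lymph nodes of a Stat5b-CAxBlnk+/- mouse on a C57BL/6 background. Stat5b-CA is a constitutively active form of STAT5B, and Blnk encodes an adaptor of the pre-B cell receptor, of which this genotype has 1 intact copy. Both libraries carry these alleles, so no wild-type or unstimulated sample was compared. The cells received murine IL7 at 10 ng/mL for 30 minutes before fixation in 1% formaldehyde for 10 minutes. The labels do not name the promoter that drives the transgene, and they describe a single mouse. Peak positions do not measure expression, so the labelled cell type could not be checked against marker genes. With 1 library, every interval below covers counting error only. Read depth is unknown, and no peak height or significance was used.

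STAT proteins bind a core written TTCNNNGAA, which reads the same on both strands. Genome sequence was at hand only for windows from 250 bases before to 50 bases after annotated gene starts, from RefSeq (GRCm38.p6, the coordinates of mm10). Of the 911 near-gene peaks, 12 overlapped such a window. All 12 windows belonged to long noncoding RNA genes, whose starts the rule did not keep at a distance. All 12 peak midpoints lay upstream of the noncoding gene's start, as the rule largely requires by keeping midpoints outside every gene. In 8 of these peaks the window covered at least 200 bases. The core stood in 5 of those 8 (62.5%, exact 95% interval 24.5 to 91.5) and in 6 of the 12. Of all 32851 windows of 300 bases, 2726 held it (8.30%), and of the 11588 windows of noncoding genes 1090 (9.41%). Shown are the 5 with the core and, for contrast, the peak at Chaserr, in which the letters were not found. Each is the part of the window under the peak, in the direction of the noncoding gene, and capitals mark the fixed letters of the core.
Gm16008, chr4:156031671-156031912, minus strand: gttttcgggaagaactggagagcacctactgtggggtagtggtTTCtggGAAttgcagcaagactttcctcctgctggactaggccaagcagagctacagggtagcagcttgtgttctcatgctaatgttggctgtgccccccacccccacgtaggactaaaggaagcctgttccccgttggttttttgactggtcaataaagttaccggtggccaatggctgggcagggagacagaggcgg
Gm31763, chr10:67004825-67005124, plus strand: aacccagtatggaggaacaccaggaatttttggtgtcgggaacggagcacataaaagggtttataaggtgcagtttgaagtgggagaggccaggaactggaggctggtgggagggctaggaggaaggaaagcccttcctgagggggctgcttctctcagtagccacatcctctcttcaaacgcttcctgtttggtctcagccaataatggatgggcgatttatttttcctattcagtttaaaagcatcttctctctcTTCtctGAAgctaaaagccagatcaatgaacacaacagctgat
Gm51802, chr10:60162342-60162641, minus strand: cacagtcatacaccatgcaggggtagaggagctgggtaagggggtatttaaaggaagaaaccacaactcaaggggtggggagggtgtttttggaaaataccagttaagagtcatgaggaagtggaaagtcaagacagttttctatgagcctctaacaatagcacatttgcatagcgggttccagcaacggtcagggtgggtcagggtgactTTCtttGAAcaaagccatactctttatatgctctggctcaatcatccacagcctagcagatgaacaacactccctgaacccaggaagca
Gm52627, chr3:95671997-95672221, plus strand: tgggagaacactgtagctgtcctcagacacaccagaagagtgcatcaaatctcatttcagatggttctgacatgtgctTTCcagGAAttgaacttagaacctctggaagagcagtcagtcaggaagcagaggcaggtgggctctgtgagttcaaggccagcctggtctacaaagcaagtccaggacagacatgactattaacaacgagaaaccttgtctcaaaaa
Rab10os, chr12:3235541-3235840, plus strand: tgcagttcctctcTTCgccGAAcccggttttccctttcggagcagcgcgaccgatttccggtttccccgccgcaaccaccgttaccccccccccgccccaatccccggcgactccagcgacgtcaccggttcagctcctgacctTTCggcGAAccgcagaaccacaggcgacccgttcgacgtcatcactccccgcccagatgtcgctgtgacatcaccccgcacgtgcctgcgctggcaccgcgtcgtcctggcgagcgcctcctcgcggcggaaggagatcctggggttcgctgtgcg
Chaserr, chr7:73558434-73558634, minus strand: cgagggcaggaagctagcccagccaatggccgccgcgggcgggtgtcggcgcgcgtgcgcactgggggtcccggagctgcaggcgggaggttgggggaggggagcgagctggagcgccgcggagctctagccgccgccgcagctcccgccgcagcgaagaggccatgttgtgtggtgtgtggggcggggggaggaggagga

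The cores were TTCTGGGAA upstream of Gm16008, TTCTCTGAA at Gm31763, TTCTTTGAA at Gm51802, TTCCAGGAA at Gm52627, and TTCGCCGAA and TTCGGCGAA at Rab10os. Their centres lay 105, 268, 108, 39, 62 and 69 bp from the peak midpoints. The core at Gm52627 was thus the closest to the middle of its peak and the core at Gm31763 the farthest, in an interval 740 bp wide. The peak at Gm52627 (243 bp, chromosome 3) lay 4083 bp beyond the 3′ end of Adamtsl4, in the gap that separates it from Mcl1. The peak at Gm51802 (459 bp, chromosome 10) lay 18993 bp beyond the 3′ end of Chst3. The peak at Rab10os (478 bp, chromosome 12), a long noncoding RNA gene beside Rab10, lay 11808 bp beyond the end of Rab10. Chaserr is a long noncoding RNA gene that neighbours Chd2, which encodes a chromatin remodeler, and its peak (201 bp, chromosome 7) lay 16788 bp from Chd2. The core was also found in peaks at gene ends, 137 of 239 (57.3%), and in peaks inside protein-coding genes, 28 of 49 (57.1%), where windows covered as much. Odds ratios were 1.24 and 1.25 (Fisher's exact test, two-sided, adjusted p = 1 for both). With 8 near-gene peaks these comparisons can show only large differences, and the odds ratios were below 1 when the search was kept to 100 bp around the midpoint (0.299 and 0.270). Distal intergenic peaks, more than 20 kb from a gene end, had the core in 0 of 6 (interval 0 to 45.9), a difference that did not pass after adjustment (Fisher's exact adjusted p = 0.0504).

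Near-gene intergenic sequence held STAT5 peaks more densely than intergenic sequence farther out. The rule covered 319.4 Mb, 12.02% of the usable sequence, at 2.85 peaks per Mb (exact 95% Poisson interval 2.67 to 3.04). Distal intergenic sequence, 1062.5 Mb, held 954 peaks at 0.898 per Mb (0.842 to 0.957). The density near genes was 3.18-fold that of distal sequence (2.90 to 3.48). It was 1.34-fold that of all other usable sequence (1.24 to 1.43), which includes the 940 peaks within 1 kb of gene ends at 11.9 per Mb. Sequence inside protein-coding genes held 2.60 per Mb (2.504 to 2.71). These ratios are descriptions, since the classes are defined by position. The sequence was not trimmed of assembly gaps or of stretches where reads cannot be placed, and it includes chromosomes X and Y. How far the ratios depend on this was not tested.

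Within the flanks the density was highest next to genes. From 1 to 2 kb there were 123 peaks at 4.29 per Mb (3.57 to 5.12), and from 2 to 5 kb 225 peaks at 3.102 per Mb (2.71 to 3.535). Beyond 5 kb it was level: 2.60 per Mb from 5 to 10 kb (239 peaks), 2.60 from 10 to 15 kb (182 peaks) and 2.52 from 15 to 20 kb (142 peaks), with overlapping intervals. The flank from 1 to 2 kb was 1.66-fold as dense as the part from 5 to 20 kb (1.36 to 2.025). Past the outer limit the density went on to lower values, 2.10 per Mb from 20 to 50 kb, 1.32 from 50 to 100 kb and 0.715 from 100 to 200 kb. The value from 20 to 50 kb (1.904 to 2.302) was below that of 5 to 20 kb, 2.58 per Mb (2.37 to 2.80), beyond counting error. The median distance was 6948 bp, with quartiles of 3162 and 12585.5 bp.

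**Figure D1:**
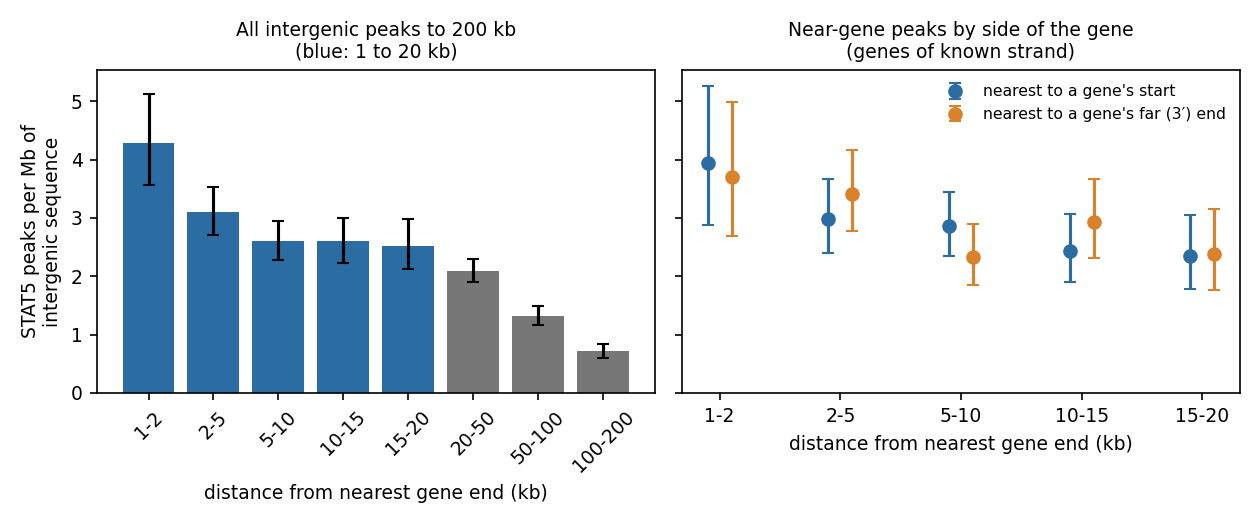
STAT5 peaks per Mb of intergenic sequence against the distance from the nearest end of a protein-coding gene in kb, for all intergenic peaks (left) and for near-gene peaks on either side of genes of known strand (right). Bars on the values are exact 95% Poisson intervals. Density is 4.29 per Mb at 1 to 2 kb and 0.715 per Mb at 100 to 200 kb, and the intervals of the 2 sides overlap in every bin.

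Density on the 2 sides of genes of known strand did not differ beyond counting error. Strand was known for the nearest gene of 721 peaks. The nearest end was the gene's start for 375 (52.0%, exact 95% interval 48.3 to 55.7), and 52.6% of the eligible sequence lay on that side. Density was 2.79 per Mb beyond starts (2.52 to 3.09) and 2.85 per Mb beyond 3′ ends (2.56 to 3.17). At 1 to 2 kb it was 3.94 per Mb beyond starts (45 peaks) and 3.71 per Mb beyond 3′ ends (43 peaks). Both are below the 4.29 per Mb of all 123 peaks at that distance, which include those nearest to genes of unknown strand. At all distances 190 peaks were nearest to genes of unknown strand, at 2.98 per Mb (2.57 to 3.43), and could lie on either side. The gap between neighbouring genes had a median of 40.8 kb. Gaps between divergent genes, whose starts face each other, held 2.997 peaks per Mb (2.55 to 3.496) and convergent gaps, where 3′ ends face each other, 3.12 (2.59 to 3.72). Gaps between genes of the same direction held 2.52 (2.25 to 2.82). Another 310 peaks lay in gaps where the strand of a flanking gene was not known, at 3.08 per Mb (2.75 to 3.45). For 569 peaks (62.5%) only 1 protein-coding gene had an end within 20 kb, for 257 it was 2, for 59 it was 3 and for 26 at least 4.

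The values at the limits of the rule were as follows. The nearest to genes were at 1016 bp from Igsf8 (378 bp wide) and 1020 bp from Rmi2 (597 bp), while intergenic peaks 973 bp from Nmi and 972 bp from Ctdsp1 fell outside. At the outer limit stood peaks 19990 bp from Tex44 and 19976 bp from Snx18, and just beyond it those 20028 bp from Scarb1 and 20052 bp from Dyrk1a.

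The nearest gene ends belonged to 744 of the 21779 protein-coding genes, a background share of 3.42%. Without predicted genes and olfactory and vomeronasal receptor genes the share was 3.84% (712 of 18521). Most genes, 618, had 1 near-gene peak, 95 had 2, 23 had 3, 6 had 4 and 2 had 5. Many of these genes had no STAT5 peak of their own otherwise: 523 had none inside the gene or within 1 kb of it. The other 221 (29.7%) did, against 11.4% of genes without a near-gene peak, whose median length was 17 kb against 24.7 kb. The nearest gene is a label of position, and which gene a peak acts on was not tested.

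Socs3, Cish and Socs1 encode feedback inhibitors of cytokine receptor signalling, and were among the 8 genes nearest to 4 or more peaks. Socs3 had 5. Beyond its 3′ end they lay at 2611, 5865, 13534 and 19292 bp, with widths of 254, 523, 754 and 1057 bp, so that the farthest was the widest. The fifth, 396 bp wide, lay 5876 bp upstream of its start, toward Pgs1. Cish had 3 peaks beyond its 3′ end, at 5209, 6038 and 10344 bp (498, 378 and 789 bp wide), and 1 upstream at 1105 bp (312 bp wide). Another 2 peaks in the same convergent gap of 24.3 kb were nearest to Hemk1, at 8518 and 1862 bp from its 3′ end. The 6 spanned 30.2 kb, within which 8 peaks of any class lay (chromosome 9, 107295399 to 107325568). All 4 peaks of Socs1 lay beyond its 3′ end, at 9019, 11423, 14876 and 17394 bp, within 8.667 kb of sequence toward Clec16a (chromosome 16, 10766270 to 10774936). Thus 11 of the 13 peaks of these 3 genes stood on the 3′ side. How much eligible sequence each side of these 3 genes held was not measured, so this count shows no preference for a side. The SOCS family as a whole had 14 near-gene peaks, at Socs1, Socs2, Socs3 and Cish of 8 genes. In its 0.153 Mb of eligible sequence this was 91.4 per Mb (49.97 to 153.4), against 2.85 for all near-gene sequence. The background share of genes with a near-gene peak was 3.42%. The family was chosen after its values were seen, and its peaks share loci, so the interval is too narrow.

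Il2ra encodes the alpha chain of the IL2 receptor, and all 4 of its near-gene peaks lay upstream of the start. They stood at 1324, 6483, 7177 and 12872 bp, with widths of 222, 467, 284 and 380 bp. In the same divergent gap of 39.6 kb, 2 more peaks were nearest to the start of Rbm17, which encodes a splicing factor, at 17220 and 19098 bp. These 6 near-gene peaks spanned 21.3 kb (chromosome 2, 11620295 to 11641579), the shortest span for that number. Il10rb, a gene for 1 chain of the receptor for IL10, had 4 peaks between 15358 and 19928 bp from its end, in 4.865 kb toward Ifnar1 (chromosome 16, 91441021 to 91445885). They were similar in width, 247 to 345 bp. At Coq2, whose product acts in coenzyme Q synthesis, 4 peaks of 214 to 427 bp lay 10091 to 17696 bp beyond the 3′ end, toward Plac8. Chst3, a chondroitin sulfotransferase gene, had 3 peaks at 12283 to 18993 bp beyond its 3′ end and 1 at 15770 bp upstream.

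The 5 peaks nearest to Atad2b, which encodes an ATPase with a bromodomain, were unlike the rest. They lay at 3527, 8220, 9836, 11624 and 13332 bp beyond its 3′ end, in a convergent gap that ends at Klhl29 (chromosome 12, 5049832 to 5061534). Their widths were 2184, 1205, 1023, 1252 and 1612 bp, where the median of near-gene peaks was 303 bp with quartiles of 240 and 409 bp. Together they covered 7.276 kb of a span of 11.7 kb, with 276 to 2998 bp between them. They held 5 of the 7 places for width among near-gene peaks, and their places in the deposited order ran from 857 to 3471 of 5908. Whether the sequence there is repeated or present in extra copies was not tested. Without them the widest near-gene peak was the one of 1057 bp at Socs3.

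**Figure D2:**
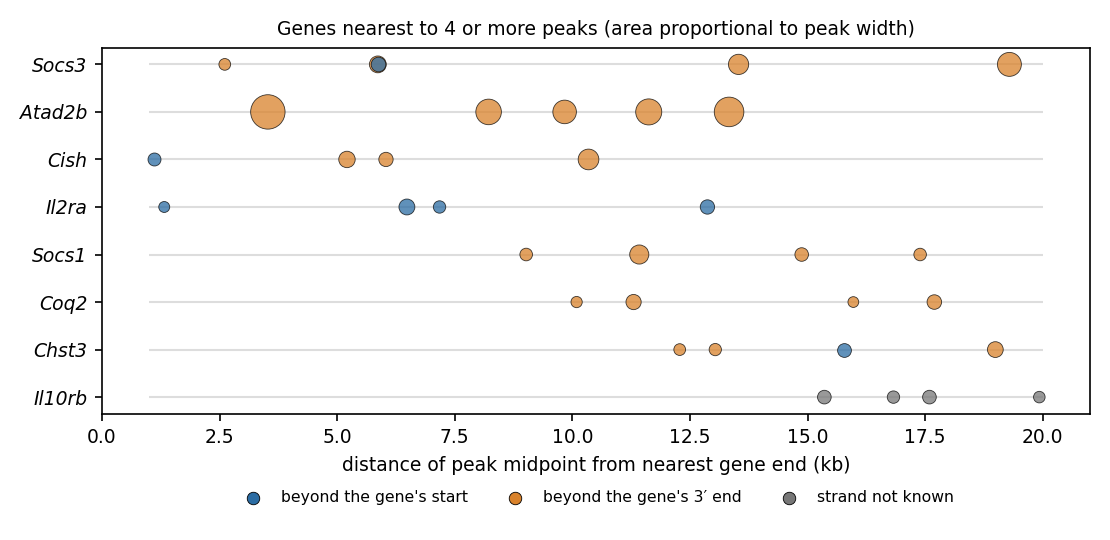
Distance in kb of each near-gene peak midpoint from the nearest gene end, for the 8 genes nearest to 4 or more peaks, with the area of a circle proportional to peak width and its colour giving the side of the gene. All 4 peaks of Il2ra are upstream and all 4 of Socs1 are beyond the 3′ end, the circles of Atad2b are the largest, and 2 circles of Socs3 at 5865 and 5876 bp overlap.

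Of the other wide peaks, 1 of 1033 bp lay 1410 bp upstream of the start of Epha2, a receptor tyrosine kinase gene, with no other peak within 223040 bp. The next were 915 bp wide at 5815 bp from Grxcr2, 906 bp at 5945 bp beyond the 3′ end of Mcl1, and 885 bp at 18684 bp beyond that of Phf2, a histone demethylase gene. In the deposited order, whose key the labels do not state, the earliest near-gene peaks had places 3, 4, 5, 8 and 9. They lay 16070 bp from Fgd2, 5249 bp from Pgf, 9108 bp from Tbc1d16, 11423 bp from Socs1 and 9547 bp from Txnrd3. Places 20, 31, 32, 68 and 93 followed, at H2bc11, Cish, Ky, Arid5a and Socs3. The Fgd2 peak (649 bp wide) was the middle one of 3, between 869 bp and 475 bp wide neighbours at 14454 and 18810 bp, in the gap of 111.2 kb before Pim1. Arid5a, which encodes an RNA-binding protein, had 3 peaks upstream of its start at 7805, 10889 and 14102 bp. The middle one of these was the widest, at 829 bp.

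For 5 of 20 gene lists, all of B cell or cytokine biology, the share with a near-gene peak lay above the background with its whole interval. The lists hold textbook genes and were chosen with earlier results of these data known, so their counts are descriptions beside the background of 3.42%. In the order given below, 17 of 28, 18 of 39, 22 of 32, 16 of 30 and 14 of 27 genes of these 5 lists had a STAT5 peak inside the gene or within 1 kb. Among all genes without a near-gene peak that share was 11.4%, so the excess was not particular to near-gene peaks. Of 28 known STAT5 target genes, 10 had a near-gene peak (35.7%, exact 95% interval 18.6 to 55.9, 10.5-fold the background). Besides the 4 SOCS genes and Il2ra these included Mcl1, a survival gene of the BCL2 family, with peaks 4232 and 6053 bp upstream and 5945 bp beyond its 3′ end. Pim1, a survival kinase gene, had 2 peaks 3712 and 4708 bp beyond its 3′ end, 631 and 586 bp wide. Myc, which drives growth, had 1 of 301 bp at 1039 bp. Dusp5, a MAP kinase phosphatase gene, and Tnfrsf13b, a B cell receptor of the TNF family, had 1 each at 15567 and 17274 bp.

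The JAK-STAT list held 39 genes, of which 10 had a near-gene peak (25.6%, 13.04 to 42.1, 7.51-fold). All but 1 of these 10 encode cytokine receptor chains, and the other was Ptpn2, a phosphatase that opposes JAK signalling. Ifngr2, a chain of the interferon gamma receptor, had 3 peaks upstream at 6001, 8492 and 13339 bp, of which the middle one was the widest at 601 bp. Il4ra had 2 peaks beyond its 3′ end, toward Il21r, at 2110 and 9405 bp. Il7r, which encodes the receptor chain for the IL7 given to these cells, had 1 peak on each side, 19336 bp upstream and 13823 bp beyond the 3′ end (296 and 218 bp wide). Il6st, the shared receptor chain of the IL6 family, also had 1 on each side. Il2rb, Il6ra, Il10ra and Csf2ra had 1 each, at 3576, 5060, 5485 and 17496 bp. By name, interleukin and interleukin receptor genes had 21 near-gene peaks at 11 of 83 genes, beside the background share of 3.42%. Their density was 14.7 per Mb of eligible sequence (9.09 to 22.4), against 2.85 for all near-gene sequence. This family, too, was chosen after its values were seen.

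Among the 32 B lineage transcription factor genes listed, 12 had a near-gene peak (37.5%, 21.1 to 56.3, 10.98-fold). Ebf1, which specifies the B lineage, had 2 peaks upstream at 4905 and 6925 bp and 1 beyond its 3′ end at 16832 bp, all at most 320 bp wide. Irf8 had 1 upstream at 10796 bp (550 bp wide) and 2 beyond the 3′ end at 3827 and 7984 bp (229 and 241 bp). Irf4 had 1 on each side, at 1254 bp upstream (444 bp wide) and 3197 bp beyond the end. IRF4 and IRF8 act in pre-B cell differentiation. The 9 interferon regulatory factor genes together had 7 near-gene peaks, at Irf1, Irf2, Irf4 and Irf8. The background share of genes was 3.42%, and this family was chosen after its values were seen. Tcf4, Id3, Fli1, Bcl11a, Gfi1, Prdm1 and Pax5 had 1 each, from 1617 bp at Tcf4 to 14845 bp beyond the 3′ end of Pax5, which maintains B cell identity. The Pax5 peak was 243 bp wide, with no other peak within 170489 bp.

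Of 30 genes of pre-B and B cell receptor signalling, 6 had a near-gene peak (20%, 7.71 to 38.6, 5.85-fold). Blnk, the gene with 1 mutant copy in these cells, had 2 upstream of its start at 1823 and 2497 bp, 741 and 199 bp wide, in the divergent gap before Dntt. Plcg2, which encodes the phospholipase that BLNK recruits, also had 2 upstream, at 2414 and 3171 bp. Vpreb2, a surrogate light chain gene, had 2 upstream at 9992 and 11967 bp (751 and 203 bp wide). Vpreb1 had 1 at 1420 bp and Cd22, which encodes an inhibitory coreceptor, 1 at 7287 bp. Of 27 genes of the B cell surface and antigen presentation, 7 had a near-gene peak (25.9%, 11.1 to 46.3, 7.59-fold): Bst1 with 2, and Cd74, H2-Aa, Cd38, Cd9, Ptprc and Cxcr4 with 1 each. The Cxcr4 peak, 19760 bp upstream of this chemokine receptor gene, was 466 bp wide.

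The other lists had few near-gene peaks, and the interval of each included the background. Among 30 chemokine, cytokine and TNF family genes, 3 had one (10%): Vegfa, an angiogenic growth factor gene, had 3 upstream at 3957, 11005 and 13483 bp, Il10 had 2 and Tnfsf8 1. Of 24 genes of the NF-kB family and its regulators 3 had one (12.5%, Traf1, Ikbkb and Tnfaip3). Of 28 cell cycle genes 2 had one (Cdkn1b with 2 peaks, Btg2 with 1), of 25 leukemia genes 2 (Tcf7 and Nr3c1), and of 24 metabolic genes 2 (Ldha and Slc2a3). Among 22 housekeeping genes 2 had one. The chromatin list, 1 of 29 (Smarca4), and the survival and apoptosis list, 1 of 21 (Bmf), were close to the background. The survival genes Mcl1 and Pim1 were counted in the STAT5 target list and not in this one. None of 14 recombination genes had one. With 3 counts as the limit that a count of 0 allows, which is lower than the exact bound of 23.2%, this leaves a share of up to 21.4%. These shares count near-gene peaks only. Inside the gene or within 1 kb of it, 14 of the 29 chromatin genes had a STAT5 peak. So had 10 of the 25 leukemia, 5 of the 14 recombination and 5 of the 21 survival genes. Over the lists of this paragraph such shares ran from 0 of 24 liver genes to that of the chromatin list, beside 11.4% of genes without a near-gene peak. Further lists were written for other cells that a lymph node can hold, and whether their genes are confined to those cells was not tested. Near-gene peaks were nearest to 1 of 26 T cell genes (Cd2, 2 peaks) and 1 of 22 myeloid genes (Adgre1). They were nearest to 0 of 20 stromal and endothelial genes (up to 15% by the same limit of 3 counts). No near-gene peak was nearest to any of 17 erythroid and megakaryocyte genes (up to 17.6%), 22 neuronal (up to 13.6%) or 24 liver genes (up to 12.5%).

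**Figure D3:**
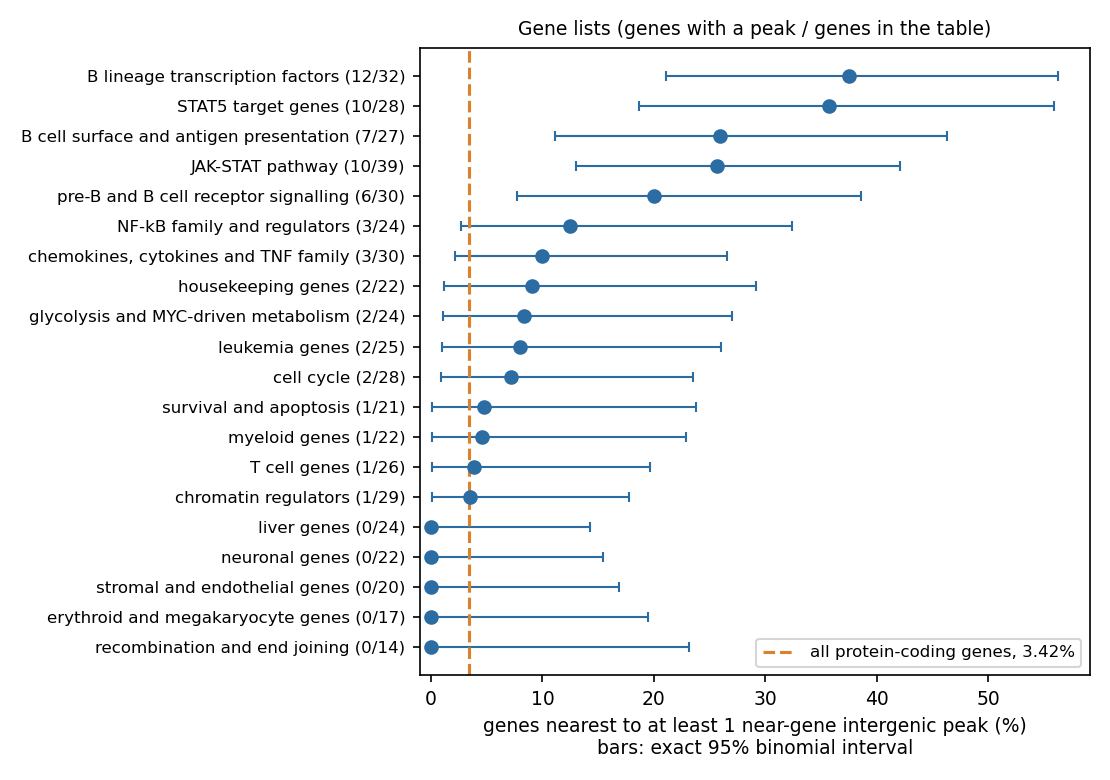
Percentage of the genes of each list that were nearest to at least 1 near-gene intergenic STAT5 peak, with exact 95% binomial intervals and the share of all protein-coding genes as a dashed line at 3.42%. The intervals of 5 lists lie wholly above the line, from 20% for receptor signalling to 37.5% for B lineage transcription factors.

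Most near-gene peaks had no other peak close by, but company was more frequent than at gene ends. Another STAT5 peak lay within 10 kb of 357 of the 911 (39.2%, exact 95% interval 36.0 to 42.4). This was more often than for peaks at gene ends, 196 of 940 (20.9%, odds ratio 2.45, Fisher's exact test, two-sided, adjusted p = 5.43e-17). It was also more often than for peaks inside protein-coding genes, 840 of 2571 (32.7%, odds ratio 1.33, Fisher's exact adjusted p = 0.00186). The latter difference did not pass with 5 kb in place of 10 kb (odds ratio 1.17, Fisher's exact adjusted p = 0.117, range over alternatives in the closing section) or in the 2954 widest peaks (1.35, 0.0509). Against distal intergenic peaks, 323 of 954 (33.9%), the odds ratio was 1.26 (Fisher's exact adjusted p = 0.0413). That call was lost in each of the 5 alternatives run, among them leaving out the 5 peaks at Atad2b (odds ratio 1.24, adjusted Fisher's exact p = 0.0557). Peaks share loci, so these p-values, adjusted over 9 tests between classes, are too small.

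The companion was mostly another near-gene peak. Of the 357, the nearest other peak was near-gene itself for 250 (70.0%), and in the same gap between genes for 247. Sequence close to a near-gene peak often belongs to the same flank by the rule. No share expected from that was computed, so these counts are descriptions. For 52 it lay at a gene end (14.6%), for 24 inside a protein-coding gene, for 17 inside another gene and for 14 in distal sequence. In 149 cases (16.4% of all near-gene peaks) it was within 2 kb. At the other extreme, 199 near-gene peaks (21.8%) had no other peak within 100 kb. There were 15 groups with at least 4 near-gene peaks within 50 kb, which together held 69. Those not yet described include 5 peaks from Rnf145 into the upstream flank of Ebf1 in 37.8 kb, all at most 352 bp wide. Another 5 lay from Slc12a3 to the far side of Herpud1, an endoplasmic reticulum stress gene, in 41.2 kb, and 5 from Uggt1 to Arid5a in 48.6 kb.

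Near-gene peaks ranged from 193 to 2184 bp in width, and 118 (12.95%) were at least 500 bp wide. Peaks inside protein-coding genes were that wide in 246 of 2571 cases (9.57%, odds ratio 1.41, Fisher's exact adjusted p = 0.0164). At a width of 750 bp this difference did not pass (odds ratio 1.28, adjusted Fisher's exact p = 0.629). Without the peaks at Atad2b the odds ratio at 500 bp was 1.35, just within the threshold (Fisher's exact adjusted p = 0.0472). Differences from gene ends (92 of 940, 9.79%, Fisher's exact adjusted p = 0.0504) and from distal sequence (107 of 954, 11.2%, adjusted Fisher's exact p = 0.329) did not pass. Medians were 303 bp near genes, 293.5 bp in distal sequence, 296 bp at gene ends and 291 bp inside protein-coding genes. Of the near-gene peaks 478 (52.5%) stood in the first 2954 places of the deposited order.

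**Figure D4:**
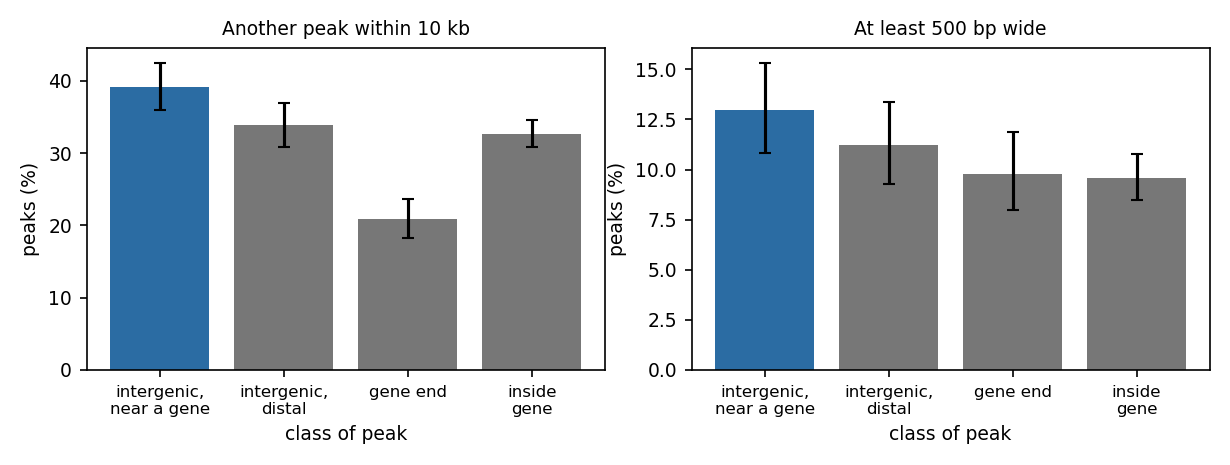
Percentage of peaks with another peak midpoint within 10 kb (left) and of peaks at least 500 bp wide (right), for near-gene intergenic peaks and 3 other classes, with exact 95% binomial intervals. Near-gene peaks have company in 39.2% of cases, and peaks at gene ends in 20.9%.

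Chromosome X had few peaks of any class, 44 in all, of which 11.4% were near-gene, against 15.5% on the autosomes. Near genes it held 5 in 21.5 Mb, 0.2325 per Mb (exact 95% Poisson interval 0.0755 to 0.543), against 906 on the autosomes at 3.14 per Mb (2.94 to 3.35), a ratio of 0.0740 (0.0240 to 0.173). The 5, nearest to Xpnpep2, Armcx6, Cldn2, Phka2 and Asb9 and named after their values were seen, were 195 to 261 bp wide, narrower than the median. All 5 lay beyond a 3′ end, with no other peak within 93221 bp. The eligible sequence on Y, 9.46 Mb, held none, which allows up to 0.317 per Mb by the limit of 3 counts (0.390 by the exact interval). The number of X copies and whether reads can be placed there were not tested. Among autosomes the density ran from 1.69 per Mb on chromosome 18 (14 peaks, 0.925 to 2.84) to 4.97 on chromosome 11 (82 peaks, 3.95 to 6.17). Chromosome 17 had 4.46 per Mb (3.40 to 5.76), and 22.4% of its peaks were near-gene, against 7.82% on chromosome 18.

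**Figure D5:**
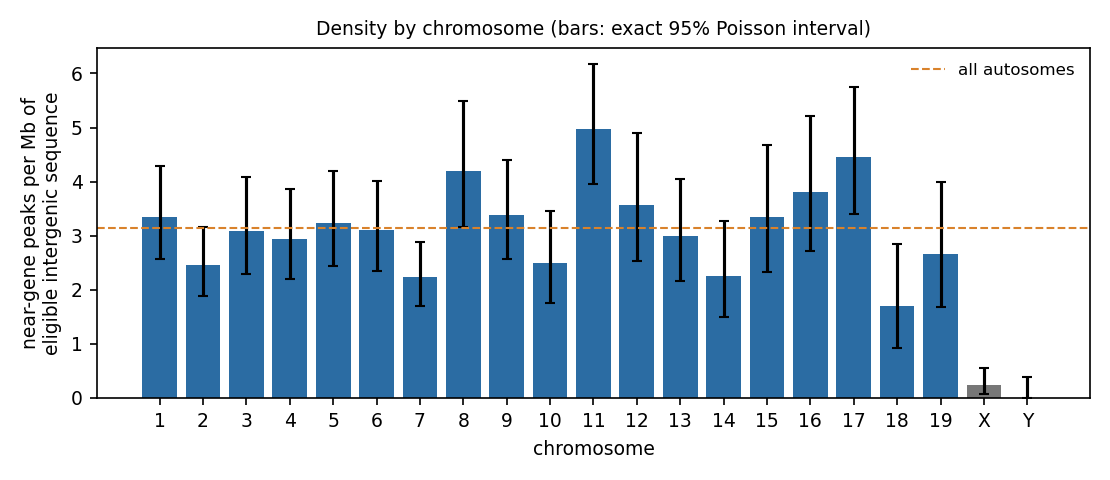
Near-gene STAT5 peaks per Mb of eligible intergenic sequence on each chromosome, with exact 95% Poisson intervals and the value of all autosomes, 3.14 per Mb, as a dashed line. Chromosomes 8, 11 and 17 stand above the line with their intervals, and chromosomes 7, 18, X and Y below it, X at 0.2325 per Mb and Y at 0.

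Flanks of sensory receptor genes held few listed peaks, and whether reads can be placed there was not tested. Sequence nearest to the 1109 olfactory receptor genes, 20.3 Mb, held 3 peaks (0.148 per Mb, 0.0305 to 0.432), and that nearest to 352 vomeronasal receptor genes, 9.78 Mb, held 1 (0.102 per Mb, 0.00259 to 0.570). The 397 zinc finger genes named Zfp had 14 (2.43 per Mb, 1.33 to 4.08), close to the 2.85 per Mb of all flanks. Noncoding genes were near some peaks too: 49 (5.38%) lay within 1 kb of the end of a noncoding gene or pseudogene, 33 of them of a long noncoding RNA gene.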

How the data were processed

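One STAT5 ChIP library and 1 input library were described, and 1 list of 5908 peaks was deposited by the authors. It gives chromosome, start and end in mm10 and a peak name, with no height or significance. Per the submitters' processing notes, BWA 0.7.4, Picard, MACS2 and mm10 were used. Their roles, settings and thresholds, the use of the input and any filter on repeats are not stated there, so a gene without a listed peak is not shown to be unbound. Coordinates count from 1. The RefSeq gene table is of GRCm38.p6. Genes starting below 3000000 bp on chromosomes other than Y (340) were left out, which left 49603, of which 21779 were protein-coding. Strand came from the table of gene-start windows, which holds 17492 of these. Where windows overlapped, their letters agreed in 3790 of 3790 pairs once strand was taken into account.

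Distances run from the peak midpoint to the nearest end of a protein-coding gene. Eligible sequence was measured base by base under the same rule, and usable sequence runs from the first to the last protein-coding gene of a chromosome. Intervals are exact (Clopper-Pearson or Poisson), and a count of 0 is also given with a limit of 3 counts. Classes were compared by Fisher's exact test, two-sided, with Benjamini-Hochberg adjustment over 9 tests and 0.05 as the threshold. The code was tested on simulated peaks. Sequence was read only from the gene-start windows, so the motif comparison covers peaks with at least 200 bases in a window. The members, lists and gene families were chosen with earlier results of these data known. Named were genes nearest to at least 4 members, the 10 widest and 10 first members, up to 10 genes a list, members at the limits and the 3 densest groups. The sequences shown, the other groups and the families were chosen after their values were seen. Ahsp was not in the gene table. Some genes counted in the lists are not reported here by name. Python 3.11.15, scipy 1.17.1 and pandas 2.3.3 were used.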

Additional observations from a re-analysis of the deposited data

Results flagged for a closer look

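Apart from the peaks compared here, 7 lay on unplaced sequences, for which the gene table gives no usable positions, and entered no comparison. They were spread over 4 such sequences, and 1 of these, JH584304, carried 4. A count of 0 would allow 3.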

How the results depend on the processing

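No paired analysis was possible because there was 1 ChIP library. Leaving out the peaks at Atad2b and counting nearest genes in part of the peaks were chosen after seeing the data. The near-gene share of 15.4% of peaks became 16.5% with an inner limit of 500 bp, 13.4% with 2 kb, 9.95% (587 peaks) with an outer limit of 10 kb, 22.8% with 50 kb and 18.5% when only protein-coding genes counted as genes. Density over all other usable sequence was 1.44-fold in the 2954 widest peaks and 1.54-fold with predicted genes left out. It stayed above distal sequence in every alternative run, by 3.06-fold to 3.40-fold.

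For company within 10 kb, the odds ratio against gene ends kept its call in all 5 alternatives. Against distal peaks it was 1.22 within 5 kb (Fisher's exact adjusted p = 0.104), 1.215 within 20 kb (0.0553), 1.115 in the widest peaks (0.697), 1.06 in the first 2954 places (0.928) and 1.24 without Atad2b (0.0557). Against peaks inside genes it was 1.17 within 5 kb (0.117) and 1.35 in the widest peaks (0.0509). For width, the odds ratio against gene ends was 1.28 at 400 bp (Fisher's exact adjusted p = 0.0465), and at 750 bp it was 0.963 against distal peaks (1) and 1.28 against peaks inside genes (0.629). For the TTCNNNGAA core, the odds ratio against gene ends and peaks inside genes was 0.299 and 0.270 within 100 bp around the midpoint (Fisher's exact adjusted p = 0.458 for both). It was 0.243 and 0.289 in peaks of 200 to 400 bp (0.709 and 0.899). Against distal peaks, which had none, it has no value.

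Genes nearest to a near-gene peak numbered 417 in the widest peaks and 409 in the first 2954 places. The ratio of the STAT5 target list to the background became 18.65 in the widest peaks, and the 5 lists named above the background kept ratios of at least 4.70 in every alternative run. Ratios became 0 for the leukemia, myeloid, housekeeping and metabolic lists in the widest peaks and in the first 2954 places, for survival in the latter, and for myeloid genes with an outer limit of 10 kb. The alternatives in which ratios became 0 held fewer near-gene peaks. The only myeloid gene, Adgre1, had its peak at 14012 bp, beyond the limit of 10 kb. The cause of the other changes was not tested.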
